A study of Mus musculus with 6 samples.

Results

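The AP-1 transcription factor genes *Fos*, *Fosb*, *Fosl1*, *Fosl2*, *Jun*, *Junb*, *Jund*, and *Atf3* were examined in RNA-Seq data of the cerebellum. They are 8 of the 53715 genes in the table, were taken by symbol, and were selected on their measured levels in these same mice, so their differences between genotypes are given as a description with no p value. The samples came from male C57BL/6 mice (C57BL/6J in the study's methods) that were 4 weeks old, 3 of the control group and 3 *Slc39a8*-NSKO mice. In *Slc39a8*-NSKO mice, Cre driven by the synapsin I promoter removes floxed *Slc39a8*, the gene of a transporter for manganese and other divalent metals, in neurons and not in glia or vessels. The labels call the controls WT, whereas the study names floxed mice without Cre as its controls, so that effects of the floxed alleles or of Cre cannot be told apart from those of the deletion here. The Cre may act to a different extent in different neurons. In a bulk tissue, fewer expressing cells and less RNA per cell cannot be told apart.

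AP-1 is a dimer of basic leucine zipper proteins. Fos proteins do not pair with each other and need a Jun partner to bind DNA, whereas Jun proteins also pair among themselves and with ATF proteins such as ATF3. In neurons, *Fos*, *Fosb*, and *Junb* are immediate early genes, whose transcription starts within minutes of synaptic activity or growth factor signaling through CREB at the cAMP response element (CRE) and SRF at the serum response element, and their RNA is short-lived. *Fos* RNA is widely used as a mark of recently active neurons, and *Jund* is known as the member with a steady basal level.

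Because CREB sites lie close to the start of several of these genes, the 140 bases before the RefSeq start (GRCm38.p6) are shown, 5′ to 3′ along the transcribed strand. Capitals mark an 8-base run that either begins, on one of the strands, with the CRE core TGACG or differs from the full CRE TGACGTCA at no more than 1 position. The windows are chr12:85473750-85473889 on the plus strand for *Fos*, chr7:19310046-19310185 on the minus strand for *Fosb*, chr5:32136332-32136471 on the plus strand for *Fosl2*, chr4:95052223-95052362 on the minus strand for *Jun*, chr8:84978749-84978888 on the minus strand for *Junb*, and chr1:191183334-191183473 on the minus strand for *Atf3*.
Fos: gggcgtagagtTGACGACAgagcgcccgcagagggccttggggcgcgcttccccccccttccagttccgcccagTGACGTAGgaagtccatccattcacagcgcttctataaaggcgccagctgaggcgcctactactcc
Fosb: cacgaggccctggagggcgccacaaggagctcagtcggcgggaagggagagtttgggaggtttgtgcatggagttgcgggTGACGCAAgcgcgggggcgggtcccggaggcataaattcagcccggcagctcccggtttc
Fosl2: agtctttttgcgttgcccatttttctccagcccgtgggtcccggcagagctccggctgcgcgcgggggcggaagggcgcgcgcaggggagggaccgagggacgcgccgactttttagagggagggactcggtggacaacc
Jun: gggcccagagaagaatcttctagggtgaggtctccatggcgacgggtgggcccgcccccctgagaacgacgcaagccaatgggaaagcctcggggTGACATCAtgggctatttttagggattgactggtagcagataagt
Junb: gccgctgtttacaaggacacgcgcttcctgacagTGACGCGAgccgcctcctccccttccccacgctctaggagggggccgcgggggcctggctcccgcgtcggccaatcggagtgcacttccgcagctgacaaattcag
Atf3: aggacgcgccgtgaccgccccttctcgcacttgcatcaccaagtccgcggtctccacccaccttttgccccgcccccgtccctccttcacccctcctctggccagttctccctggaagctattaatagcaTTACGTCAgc

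Each mouse had between 14431259.84 and 20844266.86 counts on genes, and 16330 genes had enough counts to be tested. In edgeR's quasi-likelihood test with Benjamini-Hochberg adjustment over these genes, 16 passed at an adjusted p below 0.05, 12 of them lower in *Slc39a8*-NSKO cerebellum. Between every pair of libraries the counts differed by more than sampling noise. The targeted gene *Slc39a8* had 99, 46, and 44 counts in the controls, against 38, 40, and 41 in *Slc39a8*-NSKO mice, which is 56.8% of the control level in counts per 1000000 counts (CPM), and it did not pass the test (log2 fold change −0.83, SE 0.238, adjusted p = 0.534 from edgeR's test). Markers of granule cells summed to 4262 to 4413 CPM in control and 4283 to 4760 CPM in *Slc39a8*-NSKO mice, and forebrain markers to 6.86 to 9.41 CPM over all 6 mice.

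All 8 AP-1 genes passed the filter on low counts. *Fos*, *Fosb*, *Fosl2*, and *Atf3* had 15.9% to 52.6% of their control level in *Slc39a8*-NSKO cerebellum, with no overlap between the genotypes, whereas *Fosl1*, *Jun*, and *Jund* had 90.7% or more of it. *Junb* lay between, with overlapping mice. For reference only, the calls of edgeR's test over all genes include 3 of the 8 (*Fos*, *Fosb*, and *Fosl2*), all lower, and cover 0.098% of all genes tested in either direction and 0.0735% as lower. In 5 of the 8, every *Slc39a8*-NSKO mouse was below every control mouse, against 5.26% of all genes tested, and in 0 of the 8 was every *Slc39a8*-NSKO mouse above, against 5.07% of all genes. Because the genes were selected on this contrast, these counts are no evidence about them. Throughout, CPM are relative to the TMM-normalized library size of the genes tested, the log2 fold change is the fitted difference of *Slc39a8*-NSKO minus control, and SE is its standard error.

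**Figure D1:**
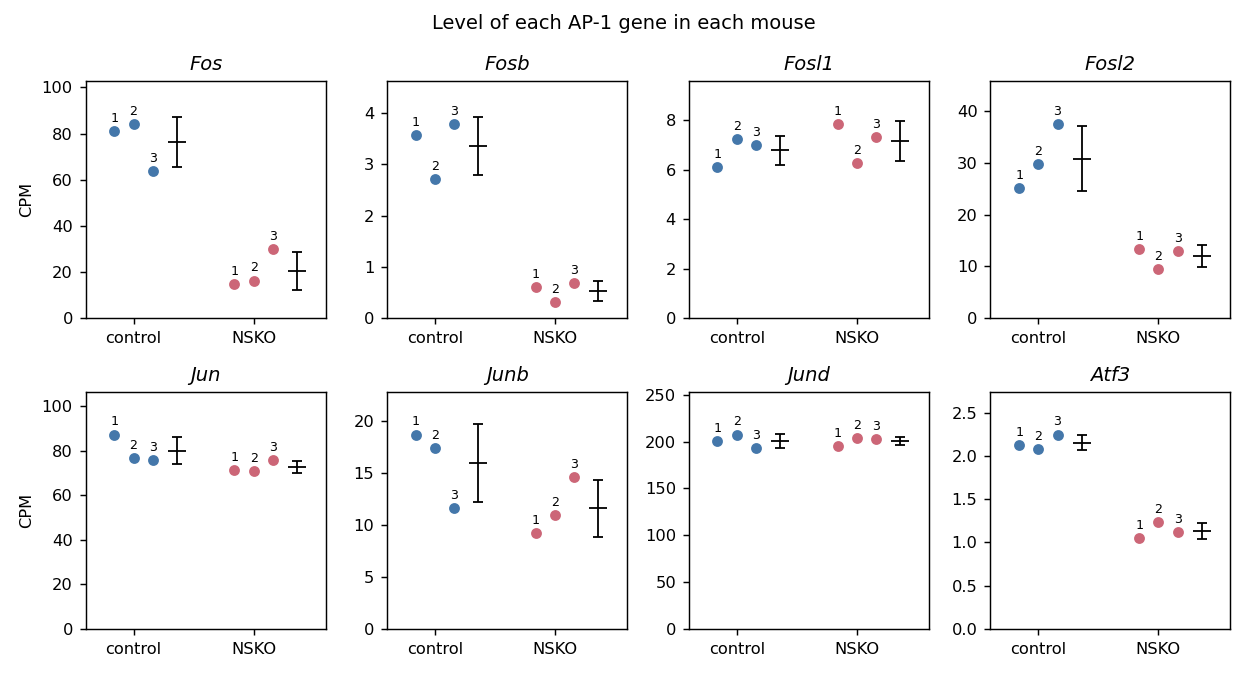
Each panel plots 1 AP-1 gene, with CPM on a vertical axis that starts at 0 and a point for each numbered mouse, and the bar at the side is the mean ± SD of the 3 mice. The points of *Fos*, *Fosb*, *Fosl2*, and *Atf3* form separate control and NSKO groups, and those of *Fosl1*, *Junb*, and *Jund* overlap.

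*Fos* (ENSMUSG00000021250.13; chr12:85473890-85477273, plus strand) encodes the founding Fos protein and is one of the first genes induced in active neurons. It had 1680, 1211, and 992 counts in the control mice, which correspond to 81.1, 84.2, and 63.7 CPM, and 297, 318, and 564 counts in *Slc39a8*-NSKO mice, which correspond to 14.9, 16.3, and 29.96 CPM. The groups lay far apart, and the highest *Slc39a8*-NSKO mouse had less than the lowest control mouse. The means were 76.3 ± 11.0 and 20.4 ± 8.32 CPM (SD, n = 3 each), which is 26.7% of control, and the log2 fold change was −1.91 (SE 0.192). *Fos* thereby went from a level above that of 80.7% of the genes tested in controls to one above that of 49.95% in *Slc39a8*-NSKO mice. The size of the difference depended most on *Slc39a8*-NSKO mouse 3, whose level was close to that of the other 2 *Slc39a8*-NSKO mice summed. Leaving out 1 mouse at a time gave log2 fold changes from −2.29 to −1.72.

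*Fosb* (ENSMUSG00000003545.3; chr7:19302696-19310051, minus strand) encodes FosB and, by splicing, the long-lived ΔFosB, which the gene counts do not separate. It had 74, 39, and 59 counts (3.57, 2.71, and 3.79 CPM) in control and 12, 6, and 13 counts (0.601, 0.308, and 0.691 CPM) in *Slc39a8*-NSKO mice. No mouse crossed between the groups. The means of 3.36 ± 0.570 and 0.533 ± 0.200 CPM (SD, n = 3 each) gave 15.9% of control and a log2 fold change of −2.65 (SE 0.319). This was the lowest fold change among the AP-1 genes and the third lowest of all genes tested. It rests on few reads, and leaving out 1 mouse at a time moved it from −2.87 to −2.37.

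*Fosl2* (ENSMUSG00000029135.10; chr5:32135801-32157842, plus strand) encodes Fra-2, which lacks the strong transactivation domain of Fos and is induced later. The control mice had 521, 429, and 585 counts (25.1, 29.8, and 37.6 CPM), and the *Slc39a8*-NSKO mice had 268, 186, and 243 counts (13.4, 9.55, and 12.9 CPM). The lowest control mouse was well above the highest *Slc39a8*-NSKO mouse. Mean levels were 30.9 ± 6.29 and 11.96 ± 2.10 CPM (SD, n = 3 each), which is 38.8% of control, with a log2 fold change of −1.36 (SE 0.148) that ranged from −1.50 to −1.19 when each mouse was left out in turn.

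*Fosl1* (ENSMUSG00000024912.5; chr19:5447547-5455946, plus strand) encodes Fra-1, the other Fos protein without that domain. It had 127, 104, and 109 counts (6.13, 7.23, and 7.004 CPM) in control and 157, 122, and 138 counts (7.86, 6.26, and 7.33 CPM) in *Slc39a8*-NSKO mice, and the groups overlapped. The means of 6.79 ± 0.582 and 7.15 ± 0.813 CPM (SD, n = 3 each) differed by a log2 fold change of 0.08 (SE 0.143). These counts are uncertain, because *Ccdc85b* on the opposite strand covers 57.2% of the exon bases of *Fosl1* and has 598 to 830 counts per mouse. Whether the counting used strand is not stated, but reads of *Jund* were split with a gene on the opposite strand (below). The counts of *Fosl1* and *Ccdc85b* were whole in every mouse, so no such split was seen between them.

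Among the Jun genes, *Jun* (ENSMUSG00000052684.4; chr4:95049034-95052222, minus strand) encodes c-Jun, the partner that is activated by the JNK kinases. It had 1810, 1107, and 1184 counts (87.3, 77.0, and 76.1 CPM) in control and 1423.99, 1379, and 1430 counts (71.3, 70.8, and 76.0 CPM) in *Slc39a8*-NSKO mice. The groups did not overlap, but control mouse 3 and *Slc39a8*-NSKO mouse 3 were nearly equal. With means of 80.1 ± 6.26 and 72.7 ± 2.85 CPM (SD, n = 3 each), *Jun* was at 90.7% of control, and the log2 fold change was −0.14 (SE 0.0662) with a range of −0.18 to −0.07 when mice were left out. *Jun* shares 7.28% of its exon bases with the antisense gene *Junos*, which had 3 to 5 counts per mouse.

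*Junb* (ENSMUSG00000052837.6; chr8:84974484-84978718, minus strand) encodes JunB, an early induced protein with weaker transactivation than c-Jun. Its 387, 250, and 181 counts (18.7, 17.4, and 11.6 CPM) in control and 184, 214, and 275 counts (9.21, 11.0, and 14.6 CPM) in *Slc39a8*-NSKO mice overlapped, since control mouse 3 was below *Slc39a8*-NSKO mouse 3. The means were 15.9 ± 3.75 and 11.6 ± 2.75 CPM (SD, n = 3 each), 73.0% of control, and the log2 fold change was −0.46 (SE 0.180). Leaving out 1 mouse moved it between −0.66 and −0.32. *Prdx2* on the opposite strand shares 7.52% of the exon bases of *Junb* and is more abundant, with 3380 to 4709 counts.

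*Jund* (ENSMUSG00000071076.6; chr8:70698949-70700616, plus strand) encodes JunD and had the highest level of the 8 genes. It had 4160.94, 2984.9, and 3008 counts (201, 208, and 193 CPM) in control and 3902.18, 3967, and 3811.91 counts (195, 204, and 202 CPM) in *Slc39a8*-NSKO mice. The mice were intermixed, and the means of 200.6 ± 7.15 and 200.5 ± 4.51 CPM (SD, n = 3 each) were nearly the same, at 99.98% of control. The SE of its log2 fold change was 0.0512, and across other settings the fold change lay between −0.02 and 0.02 with either sign. The antisense gene *Gm11175* overlaps 52.6% of the exon bases of *Jund* and had 0 to 48.09 counts. Where its counts were not whole, they added up to a whole number with those of *Jund* in the same mouse. Reads were thus split between these genes on opposite strands, and *Gm11175* is not a separate measure of antisense RNA.

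*Atf3* (ENSMUSG00000026628.13; chr1:191170296-191218039, minus strand) encodes a stress-induced member of the ATF family that pairs with Jun proteins and is strongly induced in injured neurons. It was close to the lower limit of what was tested, with 44, 30, and 35 counts (2.12, 2.09, and 2.25 CPM) in control and 21, 24, and 21 counts (1.05, 1.23, and 1.12 CPM) in *Slc39a8*-NSKO mice. The mice of each genotype were tightly grouped, and the groups did not overlap. With so few counts, the close grouping does not measure the spread between mice. The means of 2.15 ± 0.0853 and 1.13 ± 0.0917 CPM (SD, n = 3 each) gave 52.6% of control. The log2 fold change was −0.92 (SE 0.262), with a range of −0.99 to −0.87 when mice were left out.

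**Figure D2:**
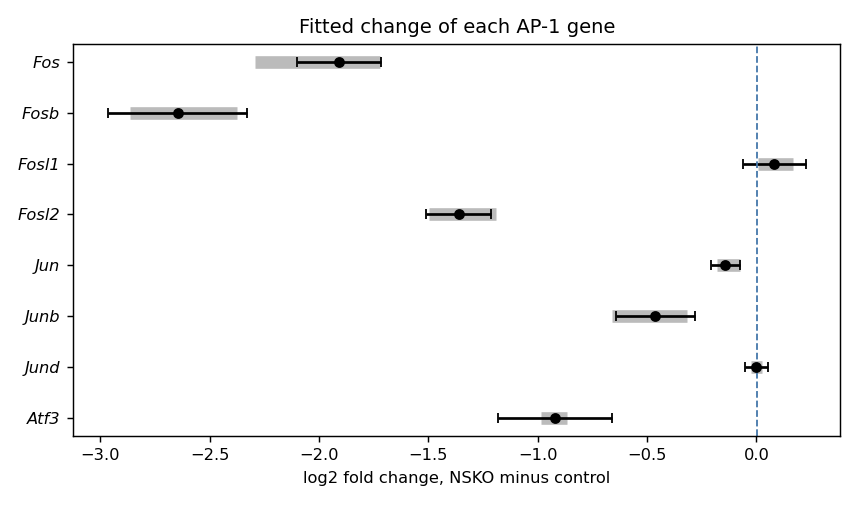
The horizontal axis is the log2 fold change, *Slc39a8*-NSKO minus control. Points are the fitted values, bars ± 1 SE, grey bands the range when 1 of the 6 mice is left out, and the dashed line the median of all genes tested. *Fosb*, *Fos*, *Fosl2*, and *Atf3* lie furthest to the left, from −2.65 to −0.92, and *Jund* and *Fosl1* lie at or near 0.

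The measured levels of mice of the same genotype also differed from each other in these genes. The SD of log2 CPM among *Slc39a8*-NSKO mice was 0.546 for *Fos* and 0.499 for *Fosb*, larger than that of 95.9% and 94.8% of all genes tested, whose median SD was 0.104. *Jund* had an SD of 0.0326 among *Slc39a8*-NSKO mice, and 8.72% of all genes had a smaller one. These SDs include the sampling noise of reads, which is larger at low counts. *Fosb* had only 12, 6, and 13 counts in the *Slc39a8*-NSKO mice, and *Jund* had 3811.91 to 3967. Differences between mice were not separated from this noise. *Slc39a8*-NSKO mouse 3 had the highest level of its genotype in *Fos*, *Fosb*, *Jun*, and *Junb*, but not in *Fosl1*, *Fosl2*, *Jund*, or *Atf3*. Control mouse 3 had the lowest level of its genotype in *Fos*, *Jun*, *Junb*, and *Jund* and the highest in *Fosb*, *Fosl2*, and *Atf3*. The measured levels of the members therefore did not share 1 order of mice within a genotype, although those of *Fosb* and *Atf3* rest on few reads.

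To compare levels between genes, counts were divided by the length of each gene's exons and scaled to a sum of 1000000 in every mouse, as TPM values are. On this length-scaled level, the order in controls was *Jund* (397.7 ± 9.597), *Fos* (107 ± 14.6), *Jun* (83.2 ± 7.17), *Junb* (22.8 ± 5.32), *Fosl1* (11.0 ± 0.848), *Fosl2* (10.6 ± 2.19), *Atf3* (3.31 ± 0.169), and *Fosb* (1.78 ± 0.326; SD, n = 3 each). The ranges of *Fos* and *Jun* overlapped over mice, but *Fos* was above *Jun* within each control mouse. The ranges of *Fosl1* and *Fosl2* also overlapped, and their order turned when the longest transcript was taken as the length. In *Slc39a8*-NSKO mice, *Jund* stayed first at 402.5 ± 6.99, and *Jun* came before *Fos*, at 76.3 ± 3.95 against 29.1 ± 12.1 (SD, n = 3 each), with no overlap. There, *Fos* overlapped in range with *Junb* at 16.9 ± 4.09 but was above it within each *Slc39a8*-NSKO mouse. *Fosl1*, *Fosl2*, *Atf3*, and *Fosb* followed at 11.8 ± 1.55, 4.15 ± 0.799, 1.76 ± 0.109, and 0.287 ± 0.111.

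The makeup of the AP-1 transcripts differed accordingly. The 4 Fos genes summed to a length-scaled level of 130.7 ± 12.04 in control and 45.3 ± 13.0 in *Slc39a8*-NSKO mice, or from 20.5% ± 1.04 to 8.28% ± 1.92 of the 8 genes (SD, n = 3 each). Their share was 19.4% to 21.4% in the control mice and 6.88% to 10.5% in the *Slc39a8*-NSKO mice. The 3 Jun genes summed to 503.7 ± 18.9 and 495.7 ± 14.5, which is 98.4% of control. Of the difference of −95.0 in the summed level of the 8 genes, *Fos* alone held −78.2, or 82.4%. *Fosb*, which had the lowest fold change, held 1.57% of it because its level was low in both genotypes.

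**Figure D3:**
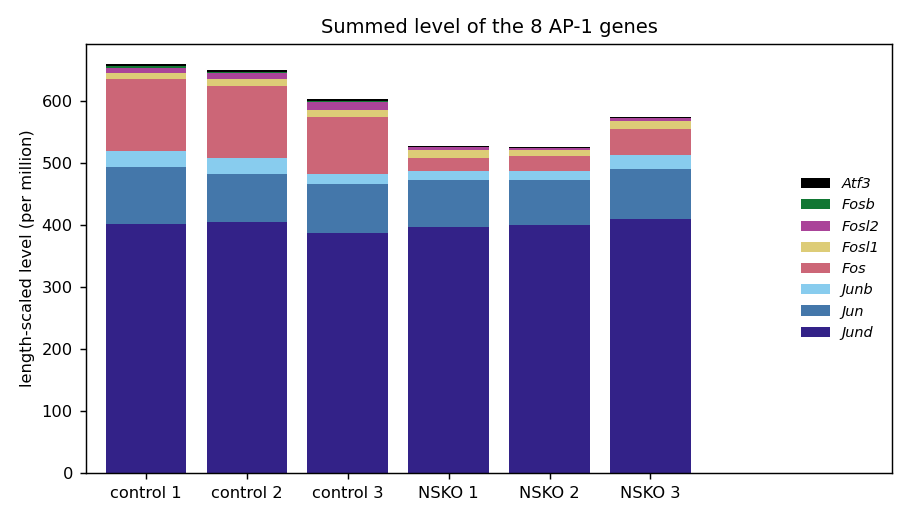
Stacked bars show the length-scaled level of the 8 AP-1 genes in each mouse from an axis that starts at 0. The *Jund* and *Jun* segments are of similar height in all 6 mice, and the *Fos* segment is the one that differs most between control and NSKO mice.

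Promoter windows from RefSeq, from 250 bases before to 50 after the start, were used for 7 of the 8 genes, and that of *Fosl1* was not analysed here. The CRE core (TGACG, either strand; part of the full CRE) was found in 4 of the 7, *Fos*, *Fosb*, *Junb*, and *Atf3*, against 20.8% of 32851 windows of the same length in RefSeq. *Fos* had it 2 times, with first bases at −129 and −66 from the start, and *Fosb*, *Junb*, and *Atf3* had it at −60, −106, and −7. Log2 fold changes were −1.91 in *Fos*, −2.65 in *Fosb*, −0.46 in *Junb*, and −0.92 in *Atf3*. *Fosl2*, *Jun*, and *Jund*, with no CRE core in this window, had −1.36, −0.14, and −0.0003, and a relation to the motif was not tested. The full CRE (TGACGTCA) was in 0 of the 7 and in 1.79% of all windows. With 1 mismatch allowed, a setting added after the sequences were seen, it was in 3 of the 7, *Fos*, *Jun*, and *Atf3*, and in 12.5% of all windows. In the *Fos* sequence printed above, the run at −129, TGACGACA, equals 7 of the 8 letters of the full CRE, and that at −66, TGACGTAG, equals 6.

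The AP-1 site itself (TGACTCA or TGAGTCA, either strand) was in 0 of the 7 windows and 5.202% of all, and the CArG box, the core of the serum response element, in 0 of the 7 and 1.63% of all. The GC box (GGGCGG, either strand) was in 5 of the 7, *Fos*, *Fosb*, *Fosl2*, *Jun*, and *Atf3*, and in 35.7% of all. The TATA box (TATAAA, sense strand) was in 2, at −33 in *Fos* and +1 in *Junb*, and in 8.32% of all. These are matches of letters in a fixed window. Sites further upstream were not searched, so a motif with no match here, such as the CArG box, may still lie outside the window. The absence of a match therefore does not show that a promoter lacks the serum response element. The RefSeq start equals the annotated gene start for *Fos* and *Jun*, and lies 6 bases downstream of it for *Fosb* and 30 bases upstream for *Junb*. The *Junb* TATA box at +1 thus begins 30 bases before the annotated start. The RefSeq start lies 671 bases downstream in *Fosl2* and 34706 bases downstream at an inner start in *Atf3*. In *Jund* it lies 1210 bases upstream of the annotated gene. The *Jund* window is therefore not shown, although it counts among the 7 and held no match.

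**Figure D4:**
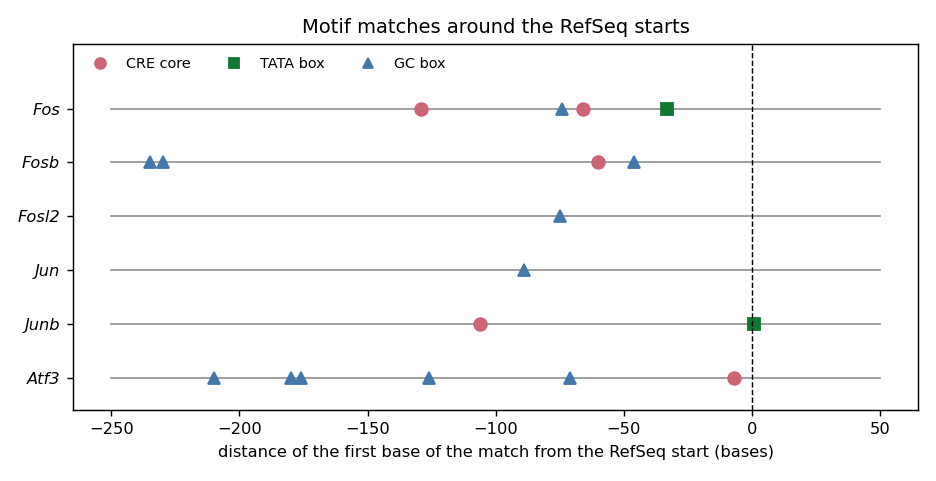
Each line is the promoter window of 1 gene, with the distance of a match from the RefSeq start in bases on the horizontal axis and the start as a dashed line. Circles are CRE cores, squares TATA boxes, and triangles GC boxes, and the circles of *Fos*, *Fosb*, *Junb*, and *Atf3* all lie within 129 bases of the start.

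Short-lived RNAs of this family are known to carry AU-rich elements, whose core is ATTTA in DNA letters. In the longest annotated 3′ UTR, counted after the levels were known, *Fos* had 4 ATTTA in 815 bases (4.91 per kb), a density reached by 4.91% of 14062 tested genes with a 3′ UTR, whose median was 1.224 per kb. *Junb* had 2 in 485 bases, *Jun* 4 in 1233 bases, and *Atf3* 3 in 1186 bases. *Jund* had 1 in 533 bases, *Fosl1* 1 in 638 bases, *Fosl2* 8 in 4653 bases, and *Fosb* 1 in 2302 bases. *Fosb*, which had the lowest fold change, had the lowest density, and *Jun* the third highest. By number, *Fosl2* had the most. A relation of these matches to the fold changes was not tested.

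Likeness to each AP-1 gene was measured as the root mean square difference of log2 CPM, centred over the 6 mice, so that a small value means a similar pattern over mice. This pattern includes the difference between genotypes, on which the AP-1 genes were selected. The genes near to *Fos*, *Fosb*, *Fosl2*, and *Atf3* will therefore mostly be others that were lower in *Slc39a8*-NSKO mice. Nearness is thus no evidence of shared regulation, which was not tested. The genes nearest to *Fos* were *Apold1* (0.247), *Nr4a1* (0.273), *Npas4* (0.349), *Nr4a2* (0.388), and *Gm38032* (0.431), over a range of 2.49 log2 units of *Fos* itself. The nearest to *Fosb* were *Nr4a3* (0.345), *Nr4a2* (0.379), and *Fos* (0.460). *Fosl2* was nearest to *Lat* (0.199), *Gm49373* (0.220), and *Gm3510* (0.246), and *Atf3* to *2900045O20Rik* (0.0683), *Gm8355* (0.0734), and *Oas1c* (0.107), most of them genes with few counts. *Jun* was nearest to *Ppp3cc* (0.0274), *Fam118a* (0.0289), and *Rab27a* (0.0315), and *Junb* to *Gm7435* (0.0758), *Gm26613* (0.0848), and *Alk* (0.0915). *Fosl1* was nearest to *Pwp1* (0.0267), *Tmem131l* (0.0356), and *Mafg* (0.0365), and *Jund* to *Gpr137* (0.00222), *Ergic3* (0.0106), and *Sh3glb2* (0.0134). For genes as flat as *Jund*, with a range of 0.103 log2 units, many genes are near. Within the family, *Fos* was nearest to *Fosb* (0.460) and then *Fosl2* (0.516), *Fosl2* to *Atf3* (0.355), and *Jun* to *Jund* (0.102). All of these values come from the same 6 libraries.

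The genes around AP-1 were examined in 6 lists with 113 genes, of which 96 could be tested. Of the 96, 0 passed edgeR's test after adjustment, 9 had an unadjusted p below 0.05 (881 of 16330 over all genes), limma-voom called 0, and DESeq2 called 1 (*Creb5*). The median log2 fold change was −0.69 over the 8 AP-1 genes and −0.08 to 0.06 over the 6 lists, against 0.00 over all genes tested. Because the 8 genes were selected on this contrast, their median is a description and no evidence that they differ from the lists.

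Among the dimer partners, 0 of 13 tested passed, with a median log2 fold change of −0.08. *Creb5*, an ATF2-like protein that pairs with c-Jun, came closest, at 16.1, 17.4, and 15.4 CPM in control and 12.1, 9.81, and 10.2 CPM in *Slc39a8*-NSKO mice. The groups did not overlap, and the log2 fold change was −0.61 (SE 0.110, adjusted p = 0.0628 from edgeR's test, 0.0312 with DESeq2, and from 0.00013 to 0.344 over all settings). The small Maf genes *Maff* and *Mafk* had log2 fold changes of −0.46 and −0.27, *Mafg* 0.05, and the abundant *Nfe2l1* and *Atf4* 0.10 and −0.06. The genes *Batf*, *Batf2*, *Batf3*, and *Mafa* had too few counts to be tested.

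Of the MAP kinases, the *Map2k* kinases upstream of them, and the *Rps6ka* kinases downstream of them, 0 of 22 passed, with a median log2 fold change of 0.00. The abundant *Mapk9* (JNK2) and *Mapk10* (JNK3) had log2 fold changes of 0.01 and −0.12, and the largest were those of *Mapk13* (−0.31), *Map2k3* (−0.25), and *Map2k5* (0.16). Of the factors at the *Fos* and *Jun* promoters, 0 of 18 passed, with a median of −0.02. *Crem*, a CREB-related gene, had the largest value, −0.33 (adjusted p = 0.860 from edgeR's test), followed by *Elk1* (0.18) and *Mrtfa* (0.15), and *Mef2d*, *Crtc1*, and *Mef2a*, the most abundant, were between −0.05 and 0.00. Transcript levels of kinases and factors do not measure their activity.

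Of the genes for turnover of AP-1 RNA and protein, 0 of 12 passed, with a median log2 fold change of −0.02. *Zfp36l2*, which encodes a protein that binds AU-rich elements and promotes decay, had 17.0 ± 0.959 CPM in control and 21.9 ± 2.06 CPM in *Slc39a8*-NSKO mice (log2 fold change 0.36, adjusted p = 0.402 from edgeR's test, n = 3 each). Its relatives *Zfp36* and *Zfp36l1* had log2 fold changes of −0.34 and −0.09, and the abundant *Hnrnpd* and *Fbxw7* had −0.06 and 0.05.

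Genes known as AP-1 targets in other settings formed another list. Of the 22 tested, 0 passed, the median log2 fold change was 0.01, and 13 of the 22 were positive. *Gfap*, the astrocyte filament gene, was at 202 ± 35.1 CPM in control and 267 ± 14.2 CPM in *Slc39a8*-NSKO mice (SD, n = 3 each) with no overlap, a log2 fold change of 0.40, and an adjusted p of 0.301 in edgeR's test. The metallothionein genes *Mt1* and *Mt2* had log2 fold changes of 0.14 and 0.22, the glutamate receptor gene *Gria2* −0.01, and the low genes *Plau* and *Timp1* 0.64 and 0.28. Of 9 tested genes that accompany *Atf3* in injured neurons, 0 passed, with a median of 0.06. *Gap43*, *Sez6l*, and *Flrt3*, the most abundant of them, had log2 fold changes of 0.06, −0.04, and 0.14, and *Trib3*, *Npy*, and *Hspb1* had 0.65, −0.32, and −0.28.

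**Figure D5:**
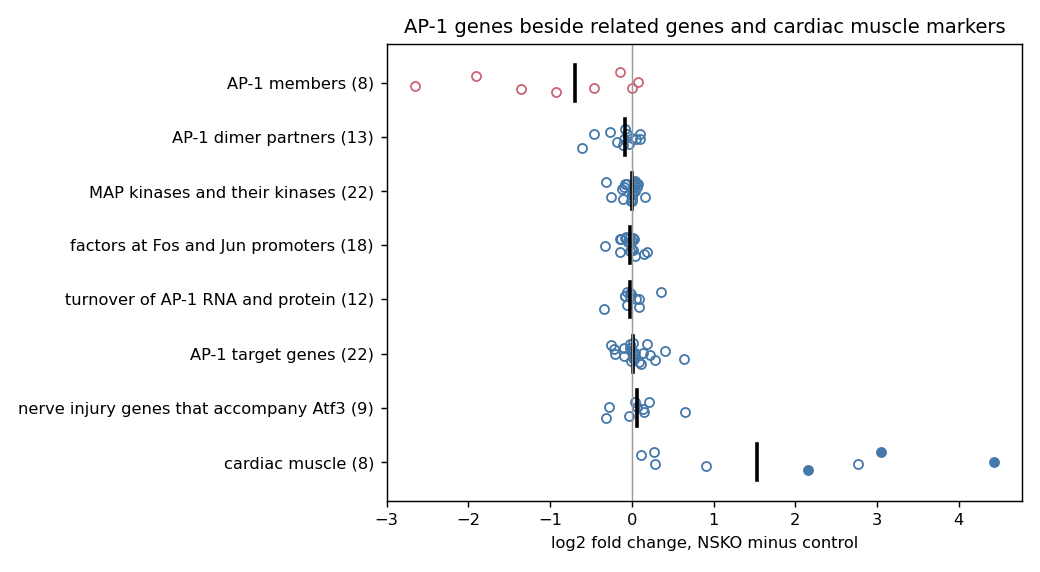
Each circle is a gene, placed by its log2 fold change (*Slc39a8*-NSKO minus control), with the median of a list as a black bar and the number of tested genes in parentheses. Filled circles passed edgeR's test at an adjusted p below 0.05, and the AP-1 genes, selected on this contrast, are drawn open and red whether or not they were called. The AP-1 genes reach −2.65, while the 6 lists related to them lie between −0.61 and 0.65.

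Markers of cells and tissues were read beside these values, and their part in the AP-1 differences was not tested. Of 63 markers tested, 4 passed edgeR's test. *Nxph1*, a neurexophilin gene used as an interneuron marker, was lower (log2 fold change −0.92, adjusted p = 0.00621), whereas the other 5 markers of that list did not pass. The cardiac genes *Myh6*, *Actc1*, and *Tnnt2* were higher (4.43, 3.05, and 2.15, adjusted p = 0.000629, 0.0223, and 0.0338). Of these calls, *Actc1* was lost with DESeq2 (adjusted p = 0.516), with limma-voom (0.111), and without *Slc39a8*-NSKO mouse 1 (0.0712) or 2 (0.157). *Tnnt2* was lost with limma-voom (0.0545) and when any mouse other than control mouse 2 was left out (adjusted p = 0.0610 to 0.193 in edgeR's test), and *Nxph1* without *Slc39a8*-NSKO mouse 2 (0.0524). The cardiac list summed to 61.4 to 71.2 CPM in control and 79.1 to 87.6 CPM in *Slc39a8*-NSKO mice, 3 of its 8 tested genes passed, and *Mybpc3* with 900 to 1339 counts made up most of the sum. The microglial list was at 102 to 113 and 119 to 123 CPM with 0 of 6 genes passing, where the exact permutation test of the sum gave p = 0.1, the lowest that 3 against 3 mice allow. The Purkinje cell, granule cell, Bergmann glia and astrocyte, oligodendrocyte, endothelial, choroid plexus, erythroid, and forebrain lists had 0 genes that passed in the main fit. The 5 choroid plexus markers all had positive log2 fold changes, with a median of 0.42 and summed levels of 748 to 1082.5 CPM in control and 878 to 1521 CPM in *Slc39a8*-NSKO mice. A single sign was not particular to that list. The 6 microglial and 8 tested cardiac markers were also all positive, and the 5 oligodendrocyte and 5 endothelial markers were all negative. Of the choroid plexus markers, *Folr1* did not overlap between genotypes, at 2.34 ± 0.332 and 4.58 ± 1.06 CPM (SD, n = 3 each; log2 fold change 0.96, adjusted p = 0.228 from edgeR's test). Without the filter on low counts, *Ttr*, *Kl*, and *Folr1* passed, as did the Purkinje cell marker *Itpr1* and the cardiac *Myl2* and *Nppa*. *Itpr1* also passed without control mouse 1. These genes were named after their values were seen. Of the 8 lists with 0 genes that passed in the main fit, the summed level did not overlap between genotypes in the forebrain list, at 7.58 to 9.41 and 6.86 to 7.33 CPM.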

How the data were processed

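RNA of 6 cerebella was sequenced as paired-end reads from cDNA primed with oligo-dT, and the labels name a directional library kit. The submitters' processing notes name STAR, RSEM, DESeq2, FastQC, and mm10, with versions not given in the sources used here. The values deposited by the authors are RSEM expected counts per gene and mouse, not normalized, and 5319 genes have a count that is not whole. Spike-in entries (0 to 5 counts per mouse) were left out. Counts were rounded and tested with edgeR 4.0.16 (R 4.3.3; TMM, filterByExpr, quasi-likelihood test, two-sided, Benjamini-Hochberg), as tested on simulated data, and length-scaled levels used the union of GENCODE exons (53620 of 53715 genes matched). DESeq2 1.42.0 and limma 3.58.1 served as alternatives. Depth was 14431259.84 to 20844266.86 counts. The AP-1 genes and the lists were chosen with earlier results of these data known. Named genes are the 8 AP-1 genes, *Slc39a8*, listed genes that passed, the 3 most abundant and 3 most different of each related list, and the 3 (*Fos*, 5) nearest genes. Some genes that this rule names are not reported here. The study states 3 mice per genotype in its methods and technical triplicates in a legend. Samples were treated as mice, otherwise p values describe technical spread. A comparison of the proteins was not run.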

Additional observations from a re-analysis of the deposited data

How the results depend on the processing

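The AP-1 genes were selected on this contrast, so other fits of it give no support. Their called set differed from *Fos*, *Fosb*, and *Fosl2* in 2 fits, where a minimum of 10 counts in every mouse removed *Fosb* before the test and where *Junb* was added without a filter. Over all genes, the 16 calls became 37 with DESeq2 (29 lower, 8 higher), 178 without a filter (112 lower, 66 higher), 41 with the replicate number as a block, 27 at an adjusted p below 0.1, 11 with the minimum of 10 counts, and 9 (without *Slc39a8*-NSKO mouse 2) to 38 (without control mouse 1) when 1 mouse was left out. The related lists went from 0 calls to 1 with DESeq2 and at 0.1 (*Creb5*), 4 without a filter (*Creb5*, *Zfp36l2*, *Gfap*, and *Mt2*), and 1 with the block (*Gfap*). The 4 marker calls became 2 with limma-voom, 10 without a filter, 1 with the minimum of 10 counts, and 1 (without *Slc39a8*-NSKO mouse 2) to 4 when 1 mouse was left out. With the longest transcript as length, the Fos genes made up 22.6% of the control AP-1 level in place of 20.5%. The replicate numbers do not settle whether the mice were paired. Same-numbered mice correlated at 0.142, 0.116, and 0.0104, and mice with different numbers at −0.177 to 0.0665. Control mice 1 and 2 correlated best with the *Slc39a8*-NSKO mouse of their number, and control mouse 3 with *Slc39a8*-NSKO mouse 1 (0.0355). The main fit took no pairing into account. *Jund*, which is near 0, took both signs. The depth limits *Fosb* and *Atf3* most, with 6 to 74 and 21 to 44 counts.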
